A study of Rattus norvegicus with 50 samples.

Results

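The phase II conjugation enzymes of rat lung are described here through 36 genes, each measured by 1 probe set of the Affymetrix Rat Gene 2.1 ST array. They were chosen by name, as every probe set with 1 gene symbol in the platform annotation that begins with Gst and a class letter, Mgst, Ugt or Sult followed by a number. They are 36 of 14562 named genes. A further 2 probe sets list a gene of these families beside a second gene and were not named, and no gene of the Ugt1 family was among the members.

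Lung RNA of male Sprague-Dawley rats was profiled on 50 arrays. PEP rats inhaled laser printer-emitted particles together with the gases of the same printer by whole-body exposure, and Air rats inhaled HEPA-filtered air, for up to 21 days. Lungs were taken at days 1, 5 and 9 (5 Air and 5 PEP at each) and at day 21 (6 Air and 6 PEP), and at day 21 also from rats with an implanted radio telemetry transmitter (4 Air and 4 PEP). All rats were of this 1 strain, with no genetic or drug treatment in the labels. Levels are log2 intensities after robust multi-array averaging (RMA), so a log2 difference of 1 is a doubling. Labels do not say that each array is a separate rat or in which exposure round it was taken, so the p-values rest on the spread among samples, which may be partly technical, and no batch could be tested.

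Conjugation enzymes attach a polar group to a reactive or lipophilic compound so that it can leave the cell. Glutathione S-transferases (GST, and the membrane-bound MGST) add glutathione, UDP-glucuronosyltransferases (UGT) add a sugar acid, and sulfotransferases (SULT) add sulfate. In lung these enzymes are best known from the airway epithelium, where club cells handle inhaled chemicals, while many UGT2B and several SULT1 enzymes are known as liver enzymes.

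The tissue was lung by its markers. Sftpc, the surfactant gene of alveolar type II cells, lay between 13.04 and 13.21, and Scgb1a1, the club cell secretoglobin, between 12.18 and 12.82 in the 50 lungs. The library PEP_D1 replicate 1 stood apart, since all 13 named hepatocyte markers had their highest value of the 50 lungs there, with Alb (albumin) at 11.89 against 5.96 in the next lung. Every comparison was therefore also fitted without it. T cell markers also differed between groups of day 21. The mean level of the 8 T cell genes ran from 5.71 to 6.17 in Air lungs, from 6.38 to 6.71 in PEP lungs, from 6.69 to 7.16 in implanted Air lungs and from 6.63 to 7.07 in implanted PEP lungs.

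Promoter sequences are shown for 4 GSTs, the genes of the alpha and mu classes that passed the test in the day or implant comparisons below. They are RefSeq windows on GRCr8, from 250 bases before to 50 after the annotated start, 5′ to 3′ on the gene's strand. Capitals mark matches, on either strand, to 3 short motifs: the antioxidant response element core TGACNNNGC (ARE), the aryl hydrocarbon receptor core GCGTG (XRE) and the HNF1 core GTTAAT.
Gsta1 (chr9:31216483-31216782, minus strand): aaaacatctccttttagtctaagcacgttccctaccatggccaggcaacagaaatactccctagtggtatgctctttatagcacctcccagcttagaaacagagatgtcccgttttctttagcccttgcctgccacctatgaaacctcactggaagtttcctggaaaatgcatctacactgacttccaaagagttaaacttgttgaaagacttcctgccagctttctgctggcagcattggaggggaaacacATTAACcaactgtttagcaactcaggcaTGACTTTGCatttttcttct
Gsta6 (chr9:31275302-31275601, minus strand): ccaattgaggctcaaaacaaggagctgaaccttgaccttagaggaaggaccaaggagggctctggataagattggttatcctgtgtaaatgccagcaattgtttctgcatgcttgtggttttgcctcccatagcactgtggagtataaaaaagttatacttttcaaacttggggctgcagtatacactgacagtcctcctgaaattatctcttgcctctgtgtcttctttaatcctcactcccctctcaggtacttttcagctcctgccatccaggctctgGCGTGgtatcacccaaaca
Gstm5 (chr2:198219519-198219818, plus strand): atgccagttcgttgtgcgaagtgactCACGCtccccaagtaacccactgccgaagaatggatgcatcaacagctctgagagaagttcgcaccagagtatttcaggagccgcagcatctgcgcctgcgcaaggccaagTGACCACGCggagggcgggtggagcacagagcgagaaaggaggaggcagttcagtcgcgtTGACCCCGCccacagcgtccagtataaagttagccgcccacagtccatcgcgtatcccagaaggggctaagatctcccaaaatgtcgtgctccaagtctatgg
Gstm7 (chr2:198260270-198260569, minus strand): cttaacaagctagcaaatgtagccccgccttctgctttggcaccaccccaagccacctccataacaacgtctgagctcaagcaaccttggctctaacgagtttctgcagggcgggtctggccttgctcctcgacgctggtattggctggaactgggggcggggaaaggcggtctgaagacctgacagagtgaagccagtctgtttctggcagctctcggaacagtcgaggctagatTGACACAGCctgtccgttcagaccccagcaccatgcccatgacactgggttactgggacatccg
The Gsta1 window holds an ARE core at bases 281 to 289, counted from its 5′ end, and the HNF1 core in reverse complement at 253 to 258. Gsta6 holds an XRE core at 282 to 286. Gstm5 holds an ARE core at 138 to 146 and again at 198 to 206, and XRE cores in reverse complement at 27 to 31 and at 142 to 146, the latter overlapping the first ARE. Gstm7 holds an ARE core at 237 to 245. Of the 36 genes, 34 matched a promoter entry. An ARE core was found in 6 of them, against 12.1% of 33469 promoters of the same length, an XRE core in 10 (29.7%) and the HNF1 core in 4 (7.45%). A match is a string of letters and not a measured binding site.

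The 36 genes fell into a bright and a dim group of equal size. Bright means ran from 5.65 to 10.7 over the 50 lungs, and dim means from 2.07 to 4.01. As a reference for background, 74 olfactory receptor (Olr) probe sets had a median mean level of 2.49 and a 95th percentile of 4.33, so all 18 dim genes were within the range of genes that lung is not known to use. This reference was added after values had been seen. The highest mean belonged to Sult1a1, the phenol sulfotransferase, at 10.7, followed by Mgst1, a membrane-bound glutathione transferase and peroxidase, at 10.6. They were followed by Gstm2 of the mu class (9.27), Gsta1 of the alpha class (8.61) and Gstp1, the only pi-class member (8.15). Probe sets differ in affinity, so this order describes intensity and not transcript number.

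Class by class, bright members were mostly GSTs. The 5 alpha genes ran from 2.26 (Gsta2) to 8.61 (Gsta1), with Gsta4, which handles the lipid peroxidation product 4-hydroxynonenal, at 7.66. The 6 mu genes ran from 3.03 (Gstm6) to 9.27 (Gstm2), and the 4 theta genes from 3.2 (Gstt4) to 7.78 (Gstt2). The omega and kappa genes were all bright, from 6.01 (Gsto2) through 6.98 (Gstk1, the mitochondrial and peroxisomal class) to 7.23 (Gsto1, a dehydroascorbate reductase). All 5 Ugt2 genes were dim, from 2.12 (Ugt2b35) to 2.9 (Ugt2b1), and of the other UGTs Ugt8, which makes galactosylceramide rather than a drug conjugate, reached 4.01. Among sulfotransferases only Sult1a1 and Sult5a1 (6.2) were bright. Some of the Gsta, Gstm and Ugt2 genes are close paralogs, so some probes may be shared and single-gene values in these clusters are uncertain.

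**Figure D1:**
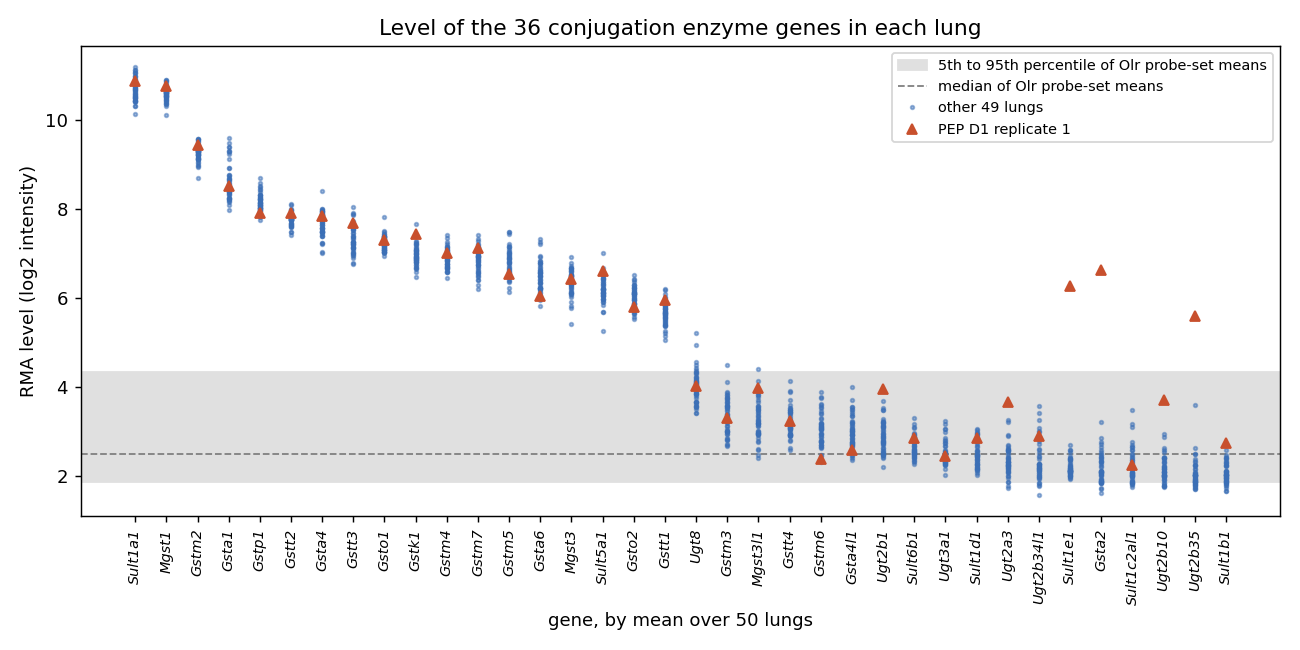
RMA level (log2 intensity, y axis) of the 36 genes (x axis, ordered by mean) in each of the 50 lungs, as points, with PEP_D1 replicate 1 as a triangle and the olfactory receptor reference as a band. The 18 bright genes sit between 5.65 and 10.7 on average and the means of the 18 dim genes inside the band. Gsta2, Sult1e1 and Ugt2b35 leave it in that 1 lung, and other lungs exceed it for Ugt8 (up to 5.22), Gstm3 (PEP_D21 replicate 5) and Mgst3l1 (4.39 in Air_D21T replicate 4).

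A gene was tested when its variance over the lungs was at least 0.05, and 30 of the 36 passed. The 6 that did not pass were all bright and of low variance: Mgst1, Gstm2, Gstp1, Gstt2, Gsto1 and Gstm4, with means from 6.9 to 10.6. Without the filter their PEP minus Air differences lay between -0.14 and 0.16 in the 5 comparisons, and the smallest adjusted p was 0.53. Other comparisons did call some of them without the filter. Gsto1 differed between days in Air lungs (limma F test, adjusted p = 0.0421), and Gstt2 and Gstp1 passed with the implant, as given below. Mgst1 was 10.57 ± 0.29 in Air and 10.72 ± 0.11 in PEP lungs at day 1 (SD, n = 5) and 10.59 ± 0.13 and 10.64 ± 0.14 at day 21 (SD, n = 6). Sult1e1 and Sult1b1 passed the filter only through PEP_D1 replicate 1, and without it 28 genes passed.

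At day 1, 7 of the 36 genes had their highest value of all lungs in PEP_D1 replicate 1, and all 7 are dim sulfotransferase, UGT2 or alpha GST genes. Gsta2, an alpha-class GST abundant in rat liver, was 6.62 in that lung and 2.09, 2.20, 1.86 and 2.00 in the other PEP lungs, against 2.37, 1.86, 2.75, 1.85 and 1.70 in Air. Sult1e1, the estrogen sulfotransferase, was 6.27 there and 2.03, 2.07, 2.24 and 2.15 in the other PEP lungs, against 1.96, 2.12, 2.53, 2.06 and 2.12 in Air. Ugt2b35 was 5.60 there and 2.24, 1.80, 1.78 and 2.03 in the others, against 1.94, 1.72, 2.24, 1.87 and 1.96 in Air. For each of these genes a single PEP lung was high, and the other 4 overlapped Air. The study picked these 3 genes out at day 1 on the same samples.

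The model's log2 differences at day 1 were 0.54 ± 0.37 for Gsta2, 0.49 ± 0.31 for Sult1e1 and 0.50 ± 0.30 for Ugt2b35 (SE; limma adjusted p = 0.776, 0.77 and 0.748). Without replicate 1 they were -0.04 ± 0.19 for Gsta2 and 0.04 ± 0.17 for Ugt2b35, and Sult1e1 no longer passed the filter. The same lung gave the highest value of Ugt2b10 (3.70, next 2.95), Ugt2a3 (3.66, next 3.26), Ugt2b1 (3.96, next 3.69) and Sult1b1, a sulfotransferase known for thyroid hormones (2.73, next 2.58). The bright GSTs did not stand apart there: Gsta1 was 8.51 against a mean of 8.61 in the other 49 lungs, and Mgst1 was 10.77 against 10.6.

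**Figure D2:**
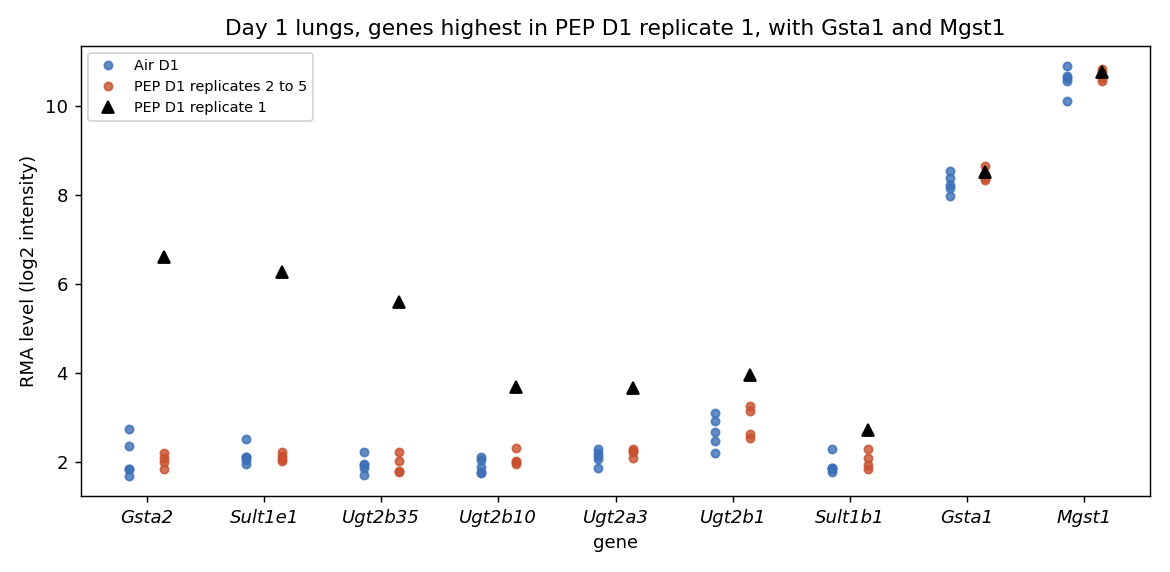
RMA level (log2 intensity, y axis) at day 1 of the 7 genes highest in PEP_D1 replicate 1 and of Gsta1 and Mgst1 (x axis), with Air lungs in blue, PEP replicates 2 to 5 in red and PEP replicate 1 as a triangle. Gsta2, Sult1e1 and Ugt2b35 reach 6.62, 6.27 and 5.60 in the triangle only, while Gsta1 (8.51) and Mgst1 (10.77) lie among the other lungs.

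Over the whole group at day 1, 0 of 30 genes passed the test, where 0% of all 8383 tested probe sets did. By sign 23 were higher and 7 lower in PEP lungs, with a median of 0.16 (0.01 over all tested). Without replicate 1 the split was 16 to 12 of 28 and the median 0.06, again with 0 called. At an unadjusted p below 0.05 there were 3 genes, or 2 without that lung. These 3 were Sult6b1 (0.34 ± 0.13, adjusted p = 0.606), Ugt2b10 (0.39 ± 0.19, adjusted p = 0.748) and Sult1c2al1 (0.41 ± 0.20, adjusted p = 0.748), all dim. Without replicate 1 Ugt2b10 was at 0.19 ± 0.16, while Sult6b1 (0.33 ± 0.13) and Sult1c2al1 (0.44 ± 0.21) were little moved.

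Days 5 and 9 gave no call either. At day 5, 0 of 30 genes passed (0% of all tested), and 20 were higher and 10 lower with a median of 0.04 (0.03 over all). The smallest p belonged to dim genes, Gstm3 (0.49 ± 0.22), Mgst3l1 (0.47 ± 0.25) and Gsta4l1 (-0.30 ± 0.20), all with adjusted p = 0.895. Gstm3 was 3.81, 3.20, 4.11, 3.89 and 3.47 in PEP lungs and 3.35, 2.70, 3.66, 3.33 and 3.38 in Air lungs, which overlap. At day 9, 0 of 30 passed (0% of all tested), 15 were higher and 15 lower, and 0 had an unadjusted p below 0.05. Gstt4 had the smallest p there, at 0.33 ± 0.18 (adjusted p = 0.945), with PEP lungs at 3.52, 3.44, 3.71, 3.42 and 3.60 and Air lungs at 3.23, 2.91, 2.92, 3.44 and 3.47.

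At day 21 the largest differences were in bright genes, Gsta1 and Sult1a1, although 0 of 30 genes passed (0.215% of all tested, or 18 probe sets). Gsta1, which conjugates glutathione and reduces lipid hydroperoxides, was 8.58 at the lowest, 8.85 at the median and 9.27 at the highest in the 6 Air lungs. In the 6 PEP lungs these values were 9.29, 9.38 and 9.59. The groups did not overlap, and the difference was 0.51 ± 0.12 (SE), a 1.42-fold higher level with adjusted p = 0.0544, just short of the threshold of 0.05. With equal array weights the adjusted p was 0.0327, without the variance filter 0.037, without Air_D21 replicate 5 0.0278 and without PEP_D21 replicate 1 0.0492, while with only the compared groups in the fit it was 0.223. Most refits did not call Gsta1: it stayed uncalled in 11 of 13 that left out 1 lung (adjusted p up to 0.194). The same held in 5 of the 8 other settings.

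Sult1a1 ran from 10.52 through a median of 10.7 to 10.84 in Air and from 10.92 through 11.04 to 11.18 in PEP lungs. Here too every PEP lung was above every Air lung. The difference was 0.38 ± 0.11, a 1.30-fold higher level (adjusted p = 0.131). By p Gstt4 came next with -0.31 ± 0.18 (adjusted p = 0.419), and by size the dim Sult1c2al1 (-0.35) and Gsta2 (-0.33). Without PEP_D1 replicate 1 the differences of Gsta1 and Sult1a1 were the same, with adjusted p = 0.0604 and 0.144. The median over the 30 genes was -0.05, with 13 higher and 17 lower (median -0.02 over all tested). Of the 30 genes, these 2 were the ones whose PEP and Air values did not overlap at day 21, where 0.823% of all tested probe sets did not. At the other times the count was 1 at day 1 (Ugt3a1, 1.07% of all), 0 at day 5 (0.847%), 0 at day 9 (0.704%) and 2 with the implant (Sult1a1 and Ugt3a1, 3.01%).

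Ugt3a1 and the lists below were looked at after values had been seen. Ugt3a1, a dim gene whose human counterpart transfers N-acetylglucosamine, was 2.45, 2.40, 2.47, 2.48 and 2.49 in PEP and 2.31, 2.38, 2.34, 2.38 and 2.25 in Air lungs at day 1, and its groups lay 0.13 ± 0.14 apart (adjusted p = 0.877). These levels are within the olfactory receptor range.

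In the implanted rats Sult1a1 was again higher with PEP and Gsta1 was not. Sult1a1 was 10.80, 11.05, 10.97 and 11.11 in PEP lungs and 10.42, 10.50, 10.30 and 10.71 in Air lungs. The groups did not overlap, and the difference was 0.49 ± 0.13, a 1.40-fold higher level (adjusted p = 0.384). Gsta1 was 8.46, 8.75, 8.69 and 9.23 in PEP and 8.47, 8.74, 8.64 and 8.92 in Air lungs, which overlap throughout (0.06 ± 0.15, adjusted p = 0.998). The difference between the PEP effects with and without implant was -0.44 ± 0.19 for Gsta1 (adjusted p = 0.702) and 0.11 ± 0.17 for Sult1a1 (adjusted p = 0.925), and 0 of 30 genes passed that test (0% of all tested).

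Besides Sult1a1, Gstt3 (0.52 ± 0.20) and Sult5a1 (0.44 ± 0.17) had the smallest p with the implant, both with adjusted p = 0.847. Gstt3, a theta-class GST, was 7.38, 8.04, 7.91 and 7.68 in PEP and 6.93, 7.22, 7.60 and 7.33 in Air lungs. Its highest Air value lay above its lowest PEP value. With the implant, 0 of 30 genes passed (0% of all tested), 22 were higher and 8 lower, and the median was 0.06 (0.03 over all). All 8 tested cardiac muscle genes were lower in these PEP lungs (median -2.51, 0 called), and their part was not tested.

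**Figure D3:**
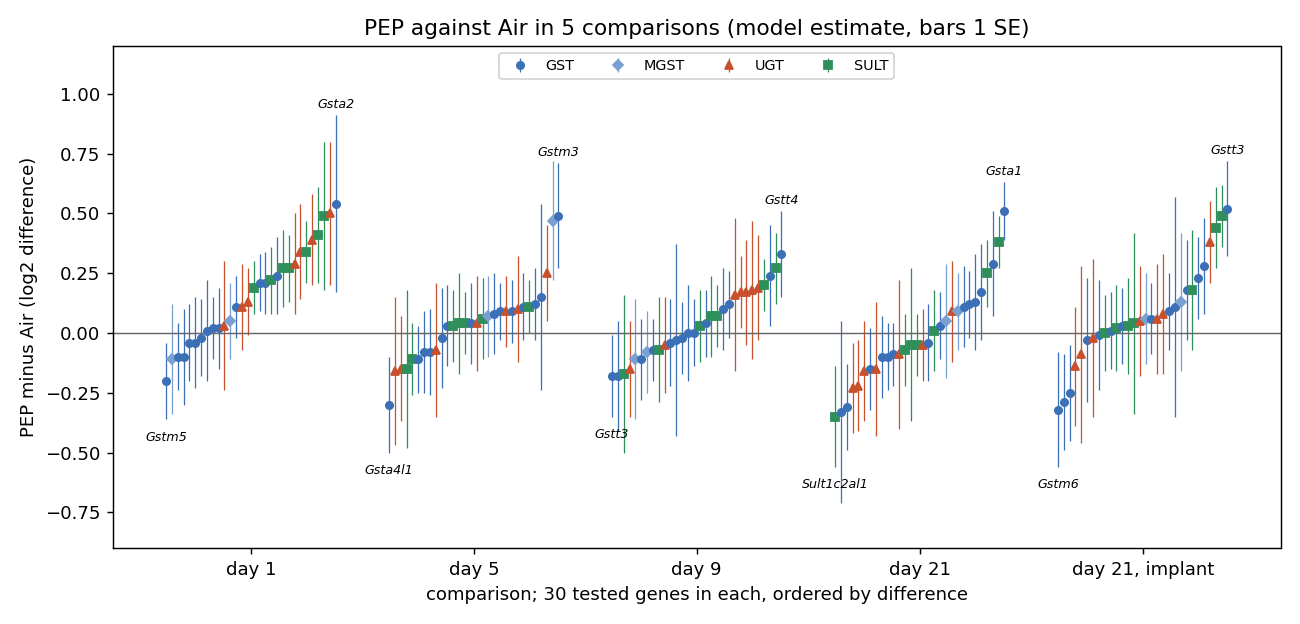
PEP minus Air (log2 difference, y axis, bars 1 SE) for the 30 tested genes in 5 comparisons (x axis), ordered within each and marked by family. Gsta1 at 0.51 leads day 21, and Gstt3 at 0.52 and Sult1a1 at 0.49 lead the implanted rats, and 0 of the points passed the test.

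Sult1a1 had a positive PEP difference in all 5 comparisons, at 0.19 ± 0.11 (day 1), 0.11 ± 0.11 (day 5), 0.20 ± 0.11 (day 9), 0.38 ± 0.11 (day 21) and 0.49 ± 0.13 (implant). The array-weighted estimates of Sult5a1 and the dim Sult1d1 were also positive in all 5, but their plain group means were not: Sult5a1 was 6.18 in Air and 6.16 in PEP lungs at day 5, and Sult1d1 2.42 and 2.41 with the implant. Averaged over the 4 days without implant the Sult1a1 difference was 0.22 ± 0.06 (adjusted p = 0.129, and 0.142 without PEP_D1 replicate 1). Gsta1 (0.18 ± 0.06, adjusted p = 0.275) and Sult5a1 (0.20 ± 0.07) followed in that mean, in which 0 of 30 genes passed (0.0239% of all tested, or 2 probe sets). The mean had 22 genes higher and 8 lower with a median of 0.06, or 18 and 10 with 0.04 without the liver-transcript lung. The test of whether the PEP effect changed with day called 0 of 30 (0% of all tested), with a smallest adjusted p of 0.592, that of Gsta1.

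**Figure D4:**
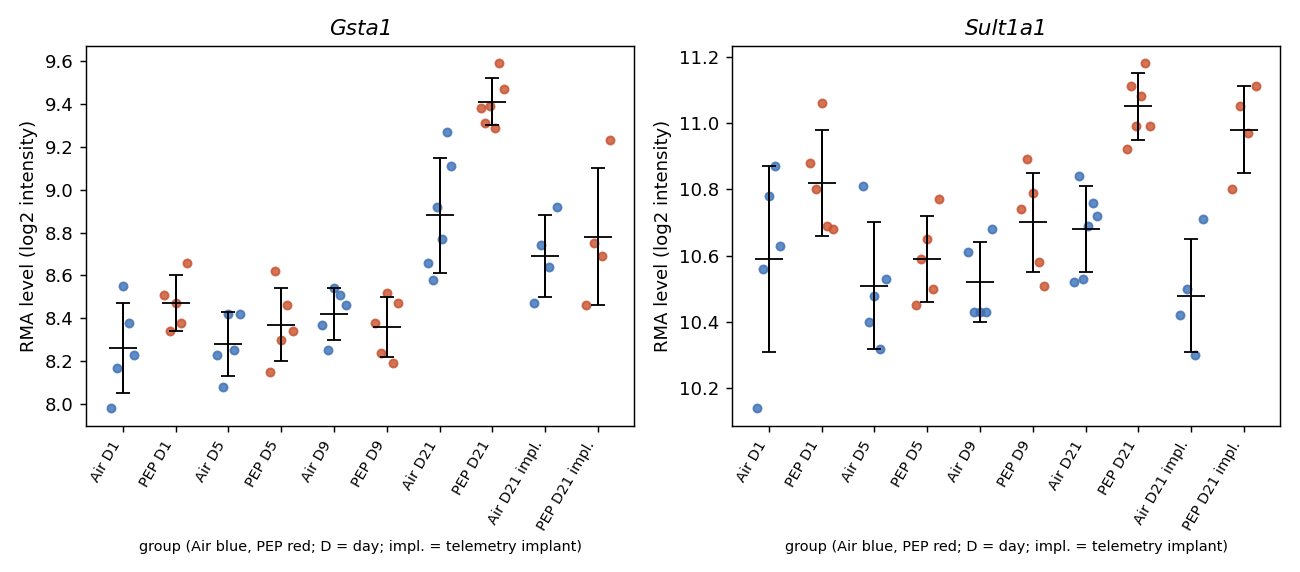
RMA level (log2 intensity, y axis) of Gsta1 and Sult1a1 in every lung by group (x axis; Air blue, PEP red), with mean and SD in black. Gsta1 in PEP lungs of day 21 (9.29 to 9.59) lies above all Air lungs of that day and Sult1a1 in PEP lungs lies above Air at day 21 with and without implant.

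In Air lungs, a smaller share of the 30 genes than of all tested probe sets differed between days. Of 30 genes 3 passed the F test over days 1, 5, 9 and 21, or 10%, where 18.4% of all tested probe sets passed. Gsta1 was 7.98, 8.17, 8.55, 8.38 and 8.23 at day 1, and 8.23, 8.08, 8.42, 8.25 and 8.42 at day 5. It was 8.37, 8.25, 8.54, 8.51 and 8.46 at day 9, and from 8.58 to 9.27 at day 21. Every Air lung of day 21 was thus above every earlier Air lung. The means were 8.26, 8.28, 8.42 and 8.88 (adjusted p = 0.000372). PEP lungs had means of 8.47, 8.37, 8.36 and 9.41 on the same days.

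Gstm5, of the mu class, was 6.73, 6.80, 7.44, 7.47 and 7.16 in Air lungs at day 1, and its means then were 7.12, 6.72, 6.58 and 6.61 at days 1, 5, 9 and 21 (adjusted p = 0.0286). Single lungs of the groups overlap, and the call was lost without Air_D1 replicate 3, 4 or 5 (adjusted p up to 0.115), with equal array weights (0.0674) or with the Air groups alone (0.0806). Ugt8 went the other way, with means of 3.60, 4.05, 4.05 and 4.34 (adjusted p = 0.0154). Its Air_D21 replicate 1 at 5.22 was the highest of the 50 lungs, and without it the adjusted p was 0.058. Ugt8 is a dim gene by the olfactory receptor reference.

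Other cell markers moved with the day in Air lungs, by the F test that 18.4% of all tested probe sets passed. T cell genes passed the same F test in 7 of 8 cases, and their mean level ran from 6.21 to 6.82 at day 1, from 6.31 to 6.58 at day 5, from 6.53 to 6.85 at day 9 and from 5.71 to 6.17 at day 21, lowest where Gsta1 was highest. Cardiac muscle genes passed in 4 of 8 cases, with mean levels from 3.68 to 4.68 at day 1 and from 3.98 to 8.38 at day 21. The part of T cell and cardiac content in the day differences was not tested. Airway content differed as well. The mean level of the 9 named motile cilia genes ran from 6.45 to 7.37 in Air lungs of day 1 and from 7.14 to 8.56 in those of day 21, and that of 8 airway secretory genes from 6.91 to 7.53 and from 7.35 to 10.32. All 8 tested cilia genes passed the same F test. How much of the day differences of Gsta1 and Ugt8 goes with airway content was not tested beyond the following correlations. After group means were subtracted, each of the 30 genes was correlated with both scores over 49 lungs, which makes 60 relations, of which 7 passed for r. The 30 include Sult1e1 and Sult1b1, which passed the filter only through PEP_D1 replicate 1, the lung left out here.

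Gstt3 followed the airway scores most closely, with r = 0.56 for secretory genes (rho = 0.54, permutation p = 0.0003 and 0.00044, adjusted 0.0093 and 0.0264) and r = 0.51 without the 2 lungs of most extreme score. For cilia genes it had r = 0.56 and rho = 0.51 (permutation p = 0.00031 and 0.00096, adjusted 0.0093 and 0.0274, r = 0.52 without 2 lungs). Gsta1 had r = 0.47 and rho = 0.50 with the cilia score (permutation p = 0.00331 and 0.00137, adjusted 0.0375 and 0.0274, r = 0.46 without 2 lungs). With the secretory score Gsta1 had r = 0.40 and rho = 0.47 (permutation p = 0.0134 and 0.00242, adjusted 0.067 and 0.0363, r = 0.36 without 2 lungs). Gsto2 had r = 0.45 (rho = 0.40) with the secretory and 0.46 (rho = 0.42) with the cilia score, for which r passed (permutation p = 0.00436 and 0.00272, adjusted 0.0375 for both) and rho did not (permutation p = 0.0112 and 0.00683, adjusted 0.0841 and 0.0585). Without 2 lungs its r was 0.42 and 0.46. Ugt8 had r = 0.48 (rho = 0.47) and 0.50 (rho = 0.49), with permutation p = 0.00437 and 0.00401 for r (adjusted 0.0375 for both) and 0.00418 and 0.00306 for rho (adjusted 0.0418 and 0.0367), and r = 0.46 without 2 lungs in both. Sult1a1 had r = -0.10 and rho = -0.14 with either score (permutation p = 0.50 and 0.36 with secretory and 0.523 and 0.39 with cilia genes; adjusted 0.828 for r).

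At day 21 the airway scores were lower on average in PEP lungs, with overlapping ranges, while Gsta1 was higher. The part of airway content in the Gsta1 difference was not tested. The mean cilia level ran from 7.14 to 8.56 in Air and from 6.53 to 7.96 in PEP lungs, and all 8 tested cilia genes and all 6 tested secretory genes were lower in PEP, with medians of -0.69 and -1.18 and 0 called. All 8 cardiac muscle genes were lower too (median -1.56, 0 called). T cell markers moved in the same direction as Gsta1 between these groups (7 of 8 higher in PEP, median 0.59, with Cd247 called), and their part in it was not tested. Fewer cells of a type and less RNA per cell cannot be told apart in whole lung.

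With the telemetry implant 1 gene was called in Air lungs and 2 in PEP lungs, all of them GSTs. In Air lungs 1 of 30 genes passed (6.79% of all tested). Gsta6, of the alpha class, ran from 5.81 through 6.48 to 6.82 in the 6 lungs without implant and was 6.93, 6.68, 7.32 and 7.26 with it. All but the 6.68 lay above every lung without implant, and the difference was 0.61 ± 0.19 (1.53-fold, adjusted p = 0.0373). The call was lost without Air_D21 replicate 1, 2 or 6 or Air_D21T replicate 3 or 4, with adjusted p up to 0.155. In PEP lungs Gsta6 differed by 0.20 ± 0.18 (adjusted p = 0.647), from 6.52 ± 0.29 (SD, n = 6) to 6.77 ± 0.32 (SD, n = 4).

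In PEP lungs 2 of 30 genes passed (3.73% of all tested). Gsta1 was 8.46, 8.75, 8.69 and 9.23 with the implant and from 9.29 to 9.59 without it. The groups did not overlap, and Gsta1 was lower with the implant by 1.56-fold (-0.64 ± 0.13, adjusted p = 0.00195). In Air lungs the same contrast was -0.20 ± 0.14 (adjusted p = 0.396). Gstm7, of the mu class, was 7.15, 7.32, 7.41 and 7.04 with the implant and ran from 6.20 through 6.78 to 6.98 without it, again with no overlap (0.53 ± 0.16, 1.44-fold higher, adjusted p = 0.042). In Air lungs Gstm7 was 6.88, 7.09, 6.94 and 7.11 with the implant and from 6.40 to 6.80 without it, also apart, at 0.42 ± 0.16 (adjusted p = 0.102). How many of all tested probe sets were apart in the implant contrasts was not counted. Gstm7 means without implant were 6.97, 6.64, 6.96 and 6.60 in Air lungs at days 1, 5, 9 and 21. In PEP lungs these means were 6.89, 6.78, 6.95 and 6.71. With implant the means were 7.01 in Air and 7.23 in PEP lungs. The Gstm7 call was lost in 7 of the refits that left out 1 lung (PEP_D21 replicate 1, 2, 4 or 6 or PEP_D21T replicate 1, 2 or 3), with adjusted p up to 0.152.

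**Figure D5:**
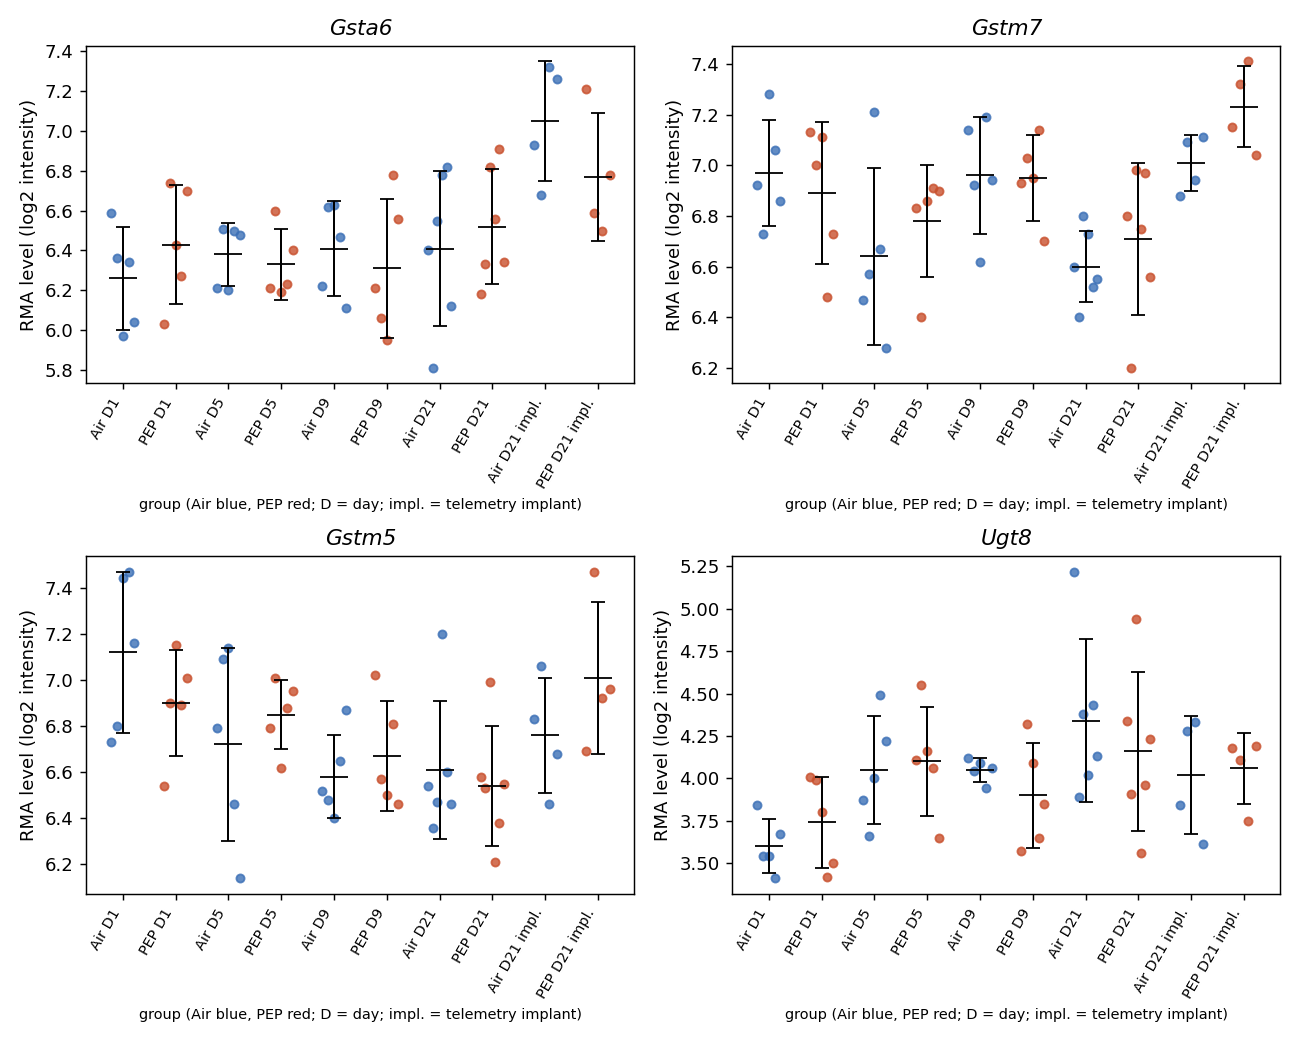
RMA level (log2 intensity, y axis) of Gsta6, Gstm7, Gstm5 and Ugt8 in every lung by group (x axis; Air blue, PEP red), with mean and SD in black. Gstm7 with implant (6.88 to 7.41) lies above the day 21 lungs of the same exposure without it. Some lungs of earlier days reach into that range (Air at day 1 up to 7.28). Gstm5 is highest in Air at day 1 (mean 7.12), and 1 Air lung of day 21 stands at 5.22 for Ugt8.

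The other members named by the smallest p did not pass. The implant difference of Gsto2 in Air lungs was -0.39 ± 0.15 (adjusted p = 0.0896), and that of Gstt1 in PEP lungs 0.46 ± 0.15 (adjusted p = 0.0708). Without PEP_D1 replicate 1 the calls with the implant were the same, at adjusted p = 0.0341 for Gsta6 in Air lungs and 0.00243 for Gsta1 and 0.0422 for Gstm7 in PEP lungs. Gsta2, a dim gene, then had the second smallest p in Air lungs, at -0.63 ± 0.22 (adjusted p = 0.0677, against 0.401 with all lungs). Without the variance filter Gstt2 also passed in Air lungs (0.34, adjusted p = 0.00667) and Gstp1 in PEP lungs (0.32, adjusted p = 0.0469). The median over the 30 genes was -0.15 in Air (9 higher, 21 lower, -0.05 over all tested) and -0.05 in PEP lungs (14 higher, 16 lower, 0.02 over all). Of the T cell markers 7 of 8 passed as higher with the implant in Air lungs (median 1.00) and 1 in PEP lungs (median 0.43), and their part in the GST differences was not tested.

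Genes around the conjugation step were taken as lists. Of 41 further conjugation and cofactor genes 14 were tested, and 0 passed in any of the 5 PEP comparisons (at most 0.215% of all tested). At day 1, 12 of these 14 were higher in PEP lungs with a median of 0.25. This count includes PEP_D1 replicate 1, the lung with liver transcripts, and was not made again without it. The mean level of the 27 named genes of the list reached 6.81 in a PEP lung. It reached 6.49 without replicate 1 and 6.44 in Air lungs. With the implant 2 of 14 passed in both exposures (6.79% of all tested in Air and 3.73% in PEP lungs). Baat, which conjugates bile acids and fatty acids to amino acids, was higher by 1.82 ± 0.36 in Air and 2.23 ± 0.35 in PEP lungs (adjusted p = 0.0011 and 9.5e-05), and Nqo2, a quinone reductase, by 1.04 ± 0.25 and 1.00 ± 0.24 (adjusted p = 0.00714 and 0.00976). In Air lungs over the days 4 of 14 passed (18.4% of all tested), among them Gclc, the catalytic subunit of the enzyme that limits glutathione synthesis (adjusted p = 0.0018), and Ephx1, the microsomal epoxide hydrolase (adjusted p = 0.000471).

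Efflux pumps export conjugates, and sulfate and nucleotide-sugar carriers supply the enzymes. Of 14 such transporter genes 6 were tested, and 0 passed in any PEP comparison (at most 0.215% of all tested). The conjugate exporters Abcc1, Abcc2, Abcc3 and Abcc4 and the nucleotide-sugar carriers were not among the tested genes. At day 21 all 6 estimates were positive (median 0.25). The highest were those of the sulfate and anion carriers Slc13a4 (0.59 ± 0.29, adjusted p = 0.338) and Slc26a1 (0.41 ± 0.17, adjusted p = 0.255), while the 4 ABC transporters Abcb1a, Abcb1b, Abcc6 and Abcg2 were at 0.24, 0.26, 0.08 and 0.22. With the implant 2 estimates were positive and 4 negative (median -0.11), a difference of effects with a median of -0.36 in which 0 passed. Among 17 regulators 6 were tested. None of the 6 passed in a PEP comparison. With the implant 1 of 6 passed in Air lungs (6.79% of all tested) and 0 in PEP lungs (3.73%). This was Nr1i2, the pregnane X receptor, which was lower with the implant in Air lungs (-0.98 ± 0.24, adjusted p = 0.00714). Over the days in Air lungs (18.4% of all tested), 1 of 6 regulators and 1 of 6 transporters passed. These were Nr1i2 again (adjusted p = 0.000481) and Abcg2 (adjusted p = 0.0181).

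Between lungs, the 30 tested genes did not move as a block. Over 49 lungs, with group means subtracted, the median pairwise r was 0.02 as a description. Sult1e1 and Sult1b1, which passed the filter only through the lung left out, count here and in the cluster below. The pairs with the highest r were Gstk1 with Gstt3 (0.57), Gstk1 with Gstm7 (0.49), Gsta1 with Gsto2 (0.48), Gsto2 with Gstt3 (0.47) and Gsta1 with Gstt3 (0.45). All 5 pairs join bright GST genes. The 8 genes of the neighbouring Sult1 and Ugt2 cluster, 6 of which had their highest value in PEP_D1 replicate 1, had a median r of 0.06 among themselves in the other 49 lungs.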

How the data were processed

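Per the submitters' processing notes the authors summarised the scanned arrays by RMA (oligo in R 3.4), and limma was among their tools, and the deposited table holds the log2 values of 36685 probe sets in 50 lungs (array medians 4.92 to 5.11). RMA quantile normalization removes shifts shared by most genes and compresses dim signals. Arrays have no read depth, and the number of lungs limits the precision. Members and lists were chosen with earlier results of these data known. A single gene was named for 14830 probe sets, several for 823 and none here for 21032. All groups were fitted in 1 limma 3.58.1 model (R 4.3.3) with gene-by-gene array weights (0.579 to 1.64), after a variance filter of 0.05 that left 8383 probe sets. P-values were two-sided, adjusted by Benjamini and Hochberg over these within each comparison, and called below 0.05. Values are differences ± SE or means ± SD. Named were the 3 smallest p and all calls per comparison, the brightest member per family, the most variable members and those the study named at day 1; Gstm5 and Ugt3a1 were named after their values were seen. On simulated data the fit was checked for recovery of known changes. The alternatives were median centring, no filter or 0.1, equal weights, robust moderation, the brightest set per gene, only the compared groups, replicate blocks and leaving out each lung. Correlations used 100000 permutations within groups. Promoters came from RefSeq (GRCr8); the build behind the array is not given in the sources used here.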

Additional observations from a re-analysis of the deposited data

Results flagged for a closer look

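Single lungs far from the rest of their group were looked for in 58 sets of values. The sets belong to members already named, some of them through PEP_D1 replicate 1 itself. The chance rate of about 1 in 20 holds for sets not chosen this way. In the 58 sets 7 such lungs were found. Of these, 4 are PEP_D1 replicate 1, the lung with liver transcripts: Gsta2 at 6.62 (others 1.86 to 2.2), Sult1e1 at 6.27 (2.03 to 2.24), Ugt2b35 at 5.6 (1.78 to 2.24) and Ugt2b10 at 3.7 (1.97 to 2.32). The other 3 were Gstm5 at 7.2 in Air_D21 replicate 4 (others 6.36 to 6.6), Sult1e1 at 2.53 in Air_D1 replicate 3 (1.96 to 2.12) and Sult6b1 at 2.44 in PEP_D1 replicate 5 (2.85 to 2.96).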

How the results depend on the processing

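Counts of 0 called members held under all alternatives at days 1, 5 and 9, in the implanted rats, for the mean over days and for both tests of a difference between PEP effects. At day 21 the count was 1 (Gsta1) with no variance filter, with equal array weights and with the replicate block (0.49, adjusted p = 0.0301), and 0 to 1 when a lung was left out (1 without Air_D21 replicate 5 or PEP_D21 replicate 1). For implant against none in Air lungs it was 2 with no filter, 0 with a filter of 0.1 and 0 with only the compared groups, and 0 to 1 without a lung. In PEP lungs it was 4 with centred arrays, 1 with a filter of 0.1, 1 with the replicate block (Gstm7 then at adjusted p = 0.085), 0 with only the compared groups, and 1 to 2 without a lung. For Air over days it was 6 with no filter and 2 to 5 without a lung (5 without Air_D5 replicate 3). Gsta2 at day 1 ranged from -0.04, without PEP_D1 replicate 1, to 0.79 when a lung was left out, and the members' median there went from 0.16 to 0.06 without that replicate. Same-numbered lungs correlated above 0.1 in 4 of 25 pairs (r from -0.351 to 0.284), all 4 among the 6 pairs of day 21 without implant, where the other r were 0.0665 and 0.0552, so numbers were not taken as pairs. Of the refits of named members, 592 kept direction and side of the threshold, 23 lost a call, 8 gained one and 1 changed sign. Gsta1 with the implant in PEP lungs had adjusted p = 0.0559 with only the compared groups. Gsto2 passed in Air lungs without Air_D21T replicate 4 (-0.51, adjusted p = 0.0375), and Gstt1 in PEP lungs with centred arrays (0.51, adjusted p = 0.048) and without PEP_D21T replicate 1 (0.0494). Dim members lie near the background, where RMA limits what a difference can show.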
